A study of Mus musculus with 11 samples.

Results

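The nucleolus is the part of the nucleus in which ribosomes are made. RNA polymerase I transcribes the long ribosomal RNA precursor there, small nucleolar ribonucleoproteins (snoRNPs) modify and help to fold it, and large sets of assembly factors cut it and build it into the small and large ribosomal subunits. Growing cells make much of this machinery, and the transcription factor MYC is known to drive many of its genes. Stratified epithelia such as the gingival epithelium renew themselves from dividing basal cells, which need new ribosomes.

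Expression of 45 nucleolar ribosome biogenesis factors was examined in the gingival epithelium of 11 langerin-DTR mice. The genes were taken by name from a list of known factors, chosen with earlier results of these data known, so the list is described and not tested. All 45 genes were found, each once, among the 19170 genes with values. They comprise 2 subunits of RNA polymerase I, 4 multifunctional nucleolar proteins, 4 proteins of the box C/D snoRNPs and U3, 4 of the box H/ACA snoRNPs, 13 factors of the small subunit, the 3 members of the PeBoW complex and 15 other factors of the large subunit.

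All mice, of both groups, carried the same langerin-DTR allele, which places the diphtheria toxin receptor on Langerhans cells (LCs) and on any other cell that expresses langerin. The methods of the paper name male mice, while its reporting summary says that groups were matched by sex and that the findings hold for both sexes. Injections of PBS (5 mice) or diphtheria toxin, DT (6 mice), were given at 17 days of age and again at 24 and 31 days, and gingival epithelium was collected from mice aged 8 weeks. The comparison asks how the adult epithelium differs after DT, which was given to remove LCs early in life. DT-treated mice without the allele were not among the groups. An effect of the toxin itself, or of losing other langerin-expressing cells, therefore cannot be told apart from that of losing LCs. Each library was 1 mouse, and the values are normalized counts, that is reads per gene divided by a size factor of the mouse.

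The reads counted per mouse lay between 17509328 (DT 1) and 24325513 (DT 2), and the normalized totals between 19991333 and 20748076. The 12 keratinocyte markers together had between 2760000 and 2898000 normalized counts after PBS and between 2843000 and 3122000 after DT, as the labelled tissue should hold. Markers of other cells were lower. The 7 leukocyte markers with values summed to between 298 and 443 after PBS and between 234 and 362 after DT, the 6 fibroblast markers to between 1252 and 1450 and between 1109 and 1594, and the 4 endothelial markers to between 69.3 and 108 and between 57.4 and 130. Those of melanocytes, muscle, Schwann cells, erythroid cells and salivary gland each summed to at most 227 in any mouse. Of the defining markers, Ly6g, Sox10, Tyrp1, Mlana and Pip are listed without a value. The 4 LC markers summed to between 1214 and 3281 normalized counts after PBS and between 829 and 1789 after DT, and Cd207, which encodes langerin, had a mean of 23.9 and 18.4. Most of the sum came from Cd74 and H2-Ab1, with means of 1361 and 557 after PBS. The adjusted p by limma was 0.409 for Cd74, 0.436 for H2-Ab1, 0.641 for Itgax and 0.853 for Cd207, so a difference in LC markers was not established. By flow cytometry, the paper reports LCs back at normal frequencies by the age of collection. In a bulk sample, fewer cells of a type and less RNA per cell cannot be told apart.

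Of the 45 genes, 41 (91.1%) had a higher mean log2 level after DT than after PBS, and 0 passed the threshold of an adjusted p under 0.1 in limma, in either direction. Over all 19170 genes, 0.313% passed it with a higher and 0.245% with a lower level after DT, and 47.3% had a positive log2 fold change. The differences were small. The log2 fold changes, DT minus PBS, lay between -0.056 for Polr1a and 0.24 for Wdr43, with standard errors (SE) between 0.047 and 0.11, and the smallest adjusted p was 0.217. At an unadjusted p under 0.05, 9 of the 45 (20.0%) were higher and 0 were lower after DT, where 5.31% of all genes were higher and 6.19% lower. The 9 genes were Wdr43, Nip7, Ddx10, Wdr75, Brix1, Nop2, Nop16, Utp18 and Bop1. This count rested in part on single mice. It was 5 without DT 1, 15 without PBS 4 and between 6 and 12 without any other mouse. Over all 19170 genes, 1018 were higher at that p in the main fit, 939 without DT 1 and 1077 without PBS 4. Without any other mouse, between 768 and 1280 were.

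Genes at the same level leaned to the same side. The means of the 45 genes over all mice ranged from 279 to 9256 normalized counts, and of the 7410 genes in that range, 59.0% had a positive log2 fold change and 9.74% were higher after DT at an unadjusted p under 0.05, with 5.61% lower. The median log2 fold change was 0.102 over the 45 genes (quartiles 0.0436 and 0.148), 0.0214 over the 7410 genes at the same level (quartiles -0.0447 and 0.0814) and -0.0105 over all genes tested. The median over the 45 was 0.0636 without DT 1 and 0.124 without PBS 4.

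**Figure D1:**
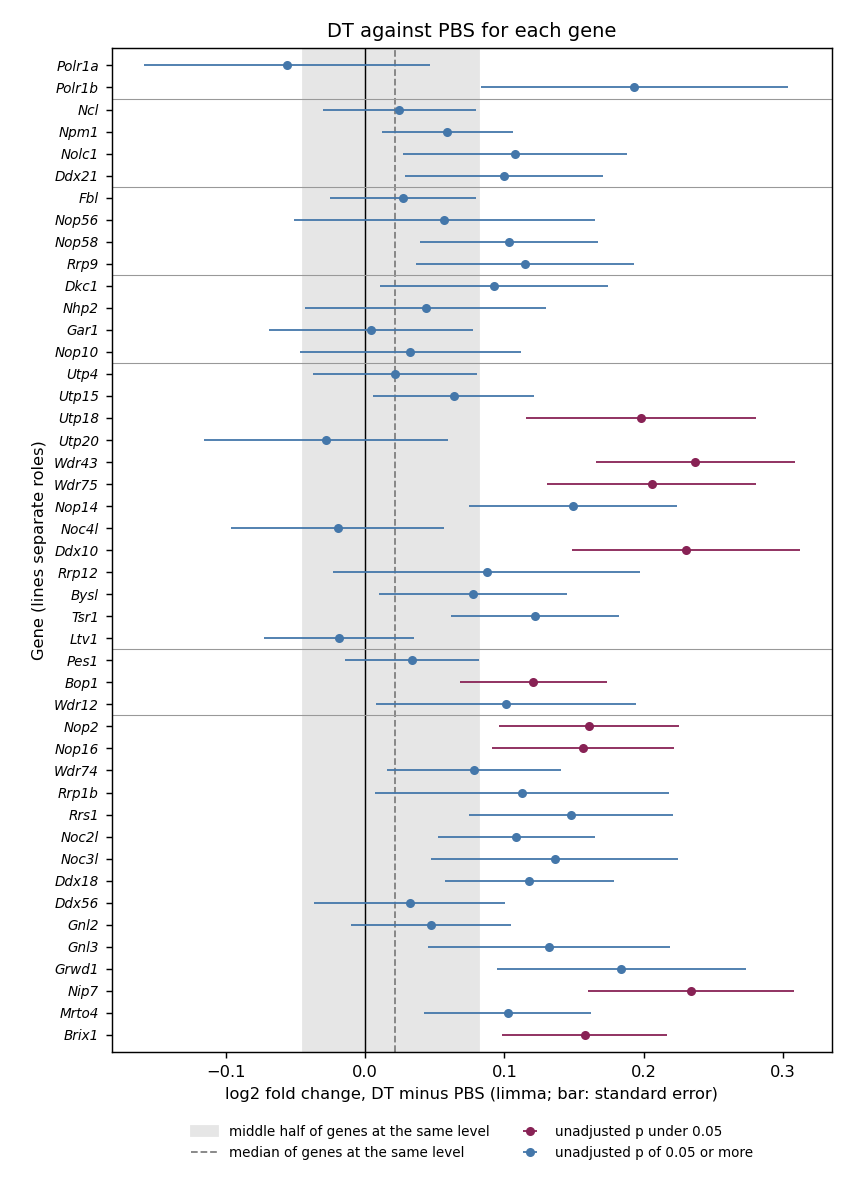
Log2 fold change, DT minus PBS, of each of the 45 genes (points, horizontal axis, log2 scale) with its standard error (bars), from limma on 5 PBS-treated and 6 DT-treated mice; the grey band spans the quartiles of the 7410 genes at the same level and the dashed line is their median of 0.0214. All but 4 points lie to the right of 0, 9 have an unadjusted p under 0.05, and 0 pass the adjusted threshold.

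DT 1 stood apart from the other mice over the 45 genes. The mean deviation of the genes from their own mean over all mice, on the log2 scale, was -0.0398, -0.0279, -0.107, 0.0223 and -0.114 in PBS 1 to PBS 5 and 0.187, -0.0388, 0.0809, -0.0275, 0.0585 and 0.00574 across DT 1 to 6. The groups therefore overlapped, with DT 2 and DT 4 among the PBS-treated mice and PBS 4 above DT 2, DT 4 and DT 6. Averaged by group, these values were -0.0532 ± 0.0572 for PBS (SD, n = 5) and 0.0443 ± 0.0843 for DT (SD, n = 6). DT 1 was the highest of all 11 mice for 30 of the 45 genes, whereas it was the highest for 7.41% of the 7410 genes at the same level. PBS 3 and PBS 5 were each the lowest for 13 of the 45 genes, whereas they were the lowest for 9.16% and 19.4% of the genes at that level. The highest mouse was a DT-treated one for 37 of the 45 genes and for 43.2% of the genes at the same level.

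**Figure D2:**
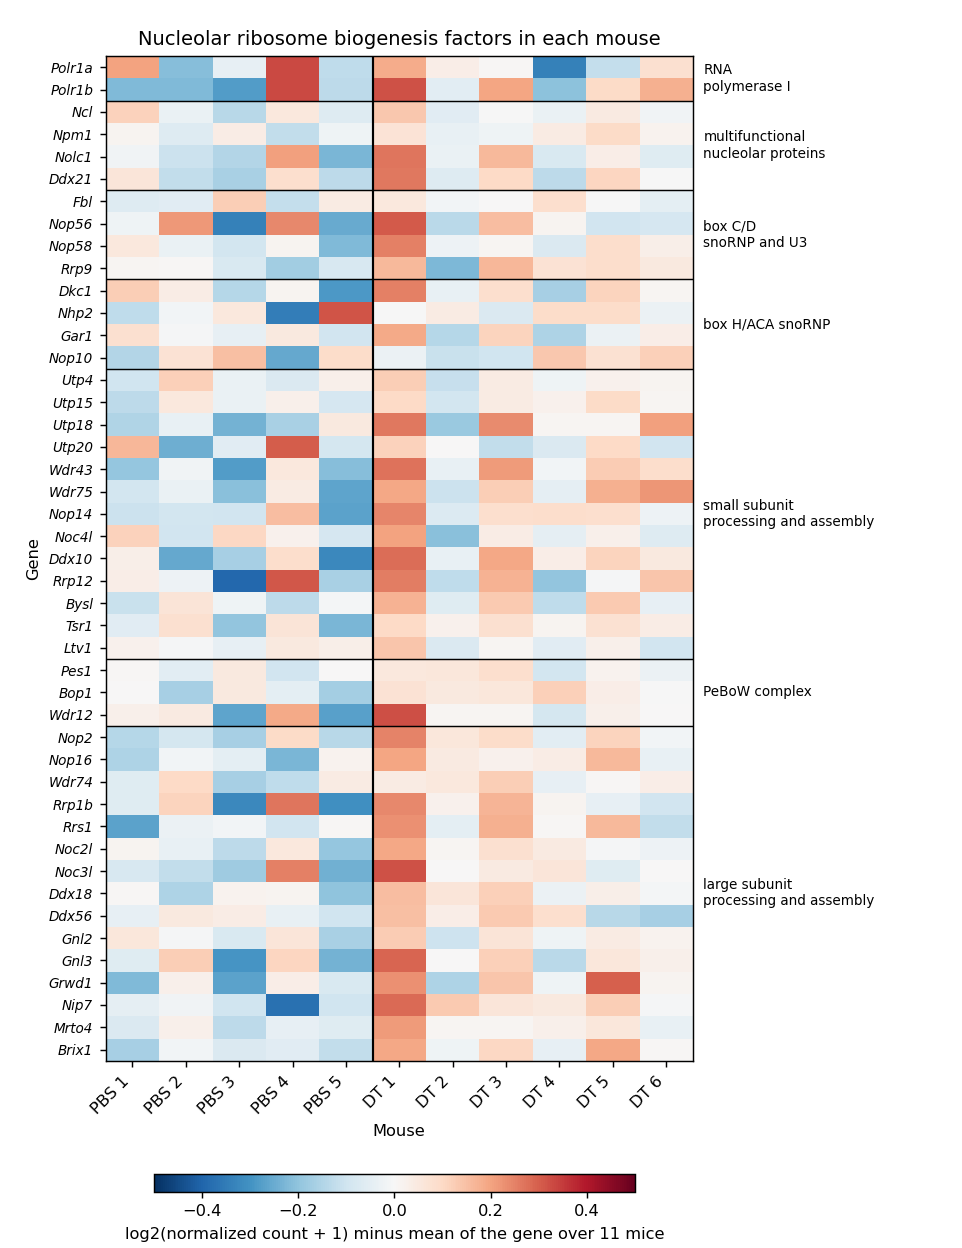
Level of each of the 45 genes (rows, grouped by role) in each of the 11 mice (columns, PBS left and DT right of the line), as log2(normalized count + 1) minus the mean of the gene over all mice. DT 1 is red in nearly every row, with a mean deviation of 0.187, and PBS 3 and PBS 5 are mostly blue, at -0.107 and -0.114.

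Other measurements that moved with these mice were the following. DT 1 had the fewest reads of all mice, 17509328, but PBS 1 had nearly as few, 17667564, with a mean deviation of -0.0398. In PBS 3 and PBS 5 the 4 LC markers deviated from their means by 0.933 and 0.732 and the leukocyte markers by 0.604 and 0.45, higher than in any other mouse. The cycling markers named next were also highest in these mice, at 0.237 and 0.261. The part of depth or of these cells in the levels of the nucleolar genes was not tested. The 8 markers of cycling cells, which include Mki67 and Top2a, all had a lower mean log2 level after DT, with a median log2 fold change of -0.16, and 0 of the 8 passed the threshold (for Mki67 the log2 fold change was -0.31 and the adjusted p 0.180 by limma). Their median thus had the opposite sign to that of the nucleolar genes.

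The RNA polymerase I subunits gave opposite signs. Polr1a encodes the largest, catalytic subunit, and had 989, 742, 837, 1080 and 788 normalized counts across PBS 1 to 5 and 978, 881, 863, 680, 791 and 910 across DT 1 to 6. DT 4 lay below every PBS-treated mouse, PBS 1 and PBS 4 lay above every DT-treated mouse, and the other mice overlapped. Its log2 fold change of -0.056 (SE 0.10, adjusted p = 0.878 by limma) turned positive without PBS 4 or without DT 4. Polr1b, the second largest subunit, had 453, 453, 435, 664 and 482 normalized counts after PBS and 659, 509, 605, 457, 564 and 597 after DT. PBS 4 was the highest of all mice and lay far above the other PBS-treated mice. The log2 fold change of Polr1b was 0.19 (SE 0.11, adjusted p = 0.525 by limma), and without PBS 4 it was 0.30, also short of the threshold.

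The most abundant of the 45 genes hardly differed. Nucleolin (Ncl) and nucleophosmin (Npm1), RNA-binding and histone-binding proteins that make up much of the nucleolus, took 34.8% of the summed normalized counts of the list. Ncl had 10003, 9030, 8404, 9588 and 8850 normalized counts across PBS 1 to 5 and 10141, 8879, 9235, 9026, 9537 and 9126 across DT 1 to 6. Its log2 fold change was 0.025 (SE 0.055, adjusted p = 0.906 by limma), and it was -0.051 after quantile normalization. Npm1 had 8310, 7871, 8456, 7555 and 8102 normalized counts after PBS and 8635, 8018, 8108, 8477, 8794 and 8331 after DT, with a log2 fold change of 0.059 (SE 0.047, adjusted p = 0.676 by limma). For both genes the groups overlapped. The RNA helicase Ddx21, which acts in RNA polymerase I transcription and rRNA processing, had the smallest p of the 4 multifunctional proteins. Its normalized counts were 2673, 2349, 2291, 2715 and 2337 after PBS and 3079, 2447, 2747, 2337, 2757 and 2558 after DT. DT 1, DT 3 and DT 5 lay above every PBS-treated mouse and DT 4 lay among the lowest, for a log2 fold change of 0.10 (SE 0.071, adjusted p = 0.629 by limma). Nolc1, a chaperone of snoRNPs, had a log2 fold change of 0.11.

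Box C/D snoRNPs place methyl groups on rRNA, and the U3 snoRNP among them guides early cleavages of the precursor. All 4 genes of this group had a positive log2 fold change, with a median of 0.0801, and 0 had an unadjusted p under 0.05. The median was 0.0405 without DT 1 and 0.0517 without PBS 5. Fibrillarin (Fbl), the methyltransferase, had 1090, 1098, 1243, 1051 and 1175 normalized counts after PBS and 1183, 1130, 1142, 1210, 1139 and 1104 after DT. Every DT-treated mouse lay within the range of the PBS-treated mice, and the log2 fold change was 0.027 (SE 0.052, adjusted p = 0.886 by limma). Nop58, a core protein beside Nop56, had 1540, 1452, 1393, 1502 and 1275 normalized counts after PBS and 1772, 1462, 1497, 1414, 1578 and 1515 after DT, with a log2 fold change of 0.10 (SE 0.064, adjusted p = 0.569 by limma). Nop56 had a log2 fold change of 0.057, which was -0.020 without PBS 3, and the U3 protein Rrp9 one of 0.11.

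Box H/ACA snoRNPs convert uridines of rRNA to pseudouridine. The median log2 fold change of this group was 0.0381, with 4 of 4 genes positive and 0 at an unadjusted p under 0.05. Its sign rested on 1 mouse, since the median was -0.0047 without PBS 4, and it ranged from 0.0218 (without PBS 1) to 0.0663 (without PBS 3) when any other mouse was left out. Dyskerin (Dkc1), the enzyme, had 815, 767, 677, 755 and 613 normalized counts after PBS and 891, 729, 792, 666, 807 and 753 after DT. DT 1 was the only mouse above the PBS range, and the log2 fold change was 0.093 (SE 0.082, adjusted p = 0.712 by limma). Nhp2, a core protein of these particles, had 1337, 1444, 1514, 1147 and 1813 normalized counts after PBS and 1458, 1500, 1389, 1553, 1553 and 1428 after DT. PBS 4 was its lowest and PBS 5 its highest mouse, and the coefficient of variation was 16.9% after PBS against 4.54% after DT. The log2 fold change of Nhp2 was 0.044 (SE 0.086, adjusted p = 0.889 by limma), and it was -0.037 without PBS 4. Nop10 and Gar1, the remaining core proteins, had log2 fold changes of 0.033 and 0.0046, which were -0.027 without PBS 4 and -0.033 without DT 1.

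Factors of the small subunit held the highest log2 fold change of the 45 and 3 of the 4 negative ones. Of 13 genes, 10 had a positive log2 fold change, with a median of 0.0873, and 4 were higher after DT at an unadjusted p under 0.05. The median was 0.0496 without DT 1 and 0.155 without PBS 4. Wdr43, Wdr75, Utp4 and Utp15 belong to the complex that joins the precursor first and is linked to its transcription. Wdr43 had 1116, 1260, 1051, 1323 and 1099 normalized counts across PBS 1 to 5 and 1538, 1243, 1476, 1264, 1390 and 1354 across DT 1 to 6. Of the DT-treated mice, 4 lay above every PBS-treated mouse, and DT 2 and DT 4 lay among the higher PBS-treated mice. Its log2 fold change was 0.24 (SE 0.072, unadjusted p = 0.0045 and adjusted p = 0.217 by limma). Wdr75 had 600, 625, 553, 657 and 533 normalized counts after PBS and 732, 594, 696, 619, 724 and 746 after DT. The same 4 DT-treated mice lay above all PBS-treated mice, and the log2 fold change was 0.21 (SE 0.075, unadjusted p = 0.014 and adjusted p = 0.293 by limma). Utp15 and Utp4, of the same complex, had log2 fold changes of 0.064 and 0.021.

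Ddx10, an RNA helicase of the small subunit pathway, had 548, 449, 478, 570 and 428 normalized counts after PBS and 651, 523, 612, 549, 579 and 555 after DT. DT 1, DT 3 and DT 5 lay above every PBS-treated mouse, while PBS 1 and PBS 4 lay within the DT range. The log2 fold change of Ddx10 was 0.23 (SE 0.082, unadjusted p = 0.013 and adjusted p = 0.288 by limma). Utp18, a component of the small subunit processome, had a log2 fold change of 0.20. Against these stood 3 genes with a lower mean after DT. Utp20, a very large scaffold protein, had 679, 510, 581, 747 and 569 normalized counts after PBS and 656, 606, 555, 575, 648 and 566 after DT. Noc4l, a partner of Nop14, had 371, 321, 368, 348 and 323 normalized counts after PBS and 394, 297, 352, 333, 349 and 328 after DT. Ltv1, which leaves the particle late and in the cytoplasm, had 674, 663, 647, 688 and 678 normalized counts after PBS and 731, 633, 670, 639, 677 and 623 after DT. The groups overlapped for each of the 3, with log2 fold changes of -0.028, -0.020 and -0.018 (SE 0.087, 0.076 and 0.054), and only that of Ltv1 stayed negative in every alternative run. The other late factors, Bysl and Tsr1, had log2 fold changes of 0.078 and 0.12, and Nop14 and Rrp12 of 0.15 and 0.087.

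Every factor of the large subunit had a positive log2 fold change. The PeBoW complex, formed by Pes1, Bop1 and Wdr12, is needed to mature the rRNA of the large subunit. Bop1 had 922, 820, 952, 891 and 818 normalized counts after PBS and 967, 952, 958, 1001, 942 and 918 after DT. The SD was 60.2 after PBS and 27.5 after DT, and the log2 fold change was 0.12 (SE 0.053, unadjusted p = 0.037 and adjusted p = 0.395 by limma). Pes1 had a log2 fold change of 0.034. Wdr12 had 403, 409, 330, 452 and 328 normalized counts after PBS and 495, 399, 399, 373, 403 and 396 after DT. DT 1 stood alone above the other DT-treated mice for Wdr12, and the log2 fold change was 0.10 (SE 0.093, adjusted p = 0.729 by limma).

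Of the 15 other factors of the large subunit, all 15 had a positive log2 fold change, between 0.032 for Ddx56 and 0.23 for Nip7, with a median of 0.132, or 0.0857 without DT 1. An unadjusted p under 0.05 was reached by 4 of them. Nip7, an assembly factor of the large subunit, was the only one of the 45 genes without overlap between the groups. Over all genes 0.902% were higher after DT without overlap and 0.751% lower, and over the 7410 genes at the same level 1.84% and 0.837%. Nip7 had 418, 426, 402, 332 and 402 normalized counts across PBS 1 to 5 and 525, 471, 449, 446, 470 and 429 across DT 1 to 6. The gap was narrow, with 425.6 in the highest PBS-treated mouse and 428.8 in the lowest DT-treated mouse, DT 6. Without PBS 4, 4 of the 45 genes had no overlap, and the share over all genes without that mouse was not counted. The log2 fold change of Nip7 was 0.23 (SE 0.074, unadjusted p = 0.0061 and adjusted p = 0.235 by limma). Brix1, a factor of the early large subunit precursor, had 679, 755, 724, 732 and 700 normalized counts after PBS and 871, 749, 819, 740, 870 and 764 after DT. It too was above the PBS range in 4 DT-treated mice, and the log2 fold change was 0.16 (SE 0.059, unadjusted p = 0.017 and adjusted p = 0.308 by limma).

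Nop2, a methyltransferase of the large subunit rRNA, and Nop16 each had a log2 fold change of 0.16, with unadjusted p-values of 0.024 and 0.029 in limma. Rrs1, which helps to bring in the 5S ribonucleoprotein, and Grwd1, which acts with a ribosomal protein of the large subunit, had log2 fold changes of 0.15 and 0.18, the helicase Ddx18 one of 0.12, and the GTPases Gnl3 (nucleostemin) and Gnl2 of 0.13 and 0.047. Noc2l and Noc3l had 0.11 and 0.14, Mrto4 had 0.10 and Wdr74 had 0.078. Rrp1b had 285, 321, 237, 358 and 240 normalized counts after PBS and 351, 302, 334, 300, 288 and 278 after DT. Its range after PBS enclosed every DT-treated mouse, and the log2 fold change was 0.11 (SE 0.11, adjusted p = 0.734 by limma).

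**Figure D3:**
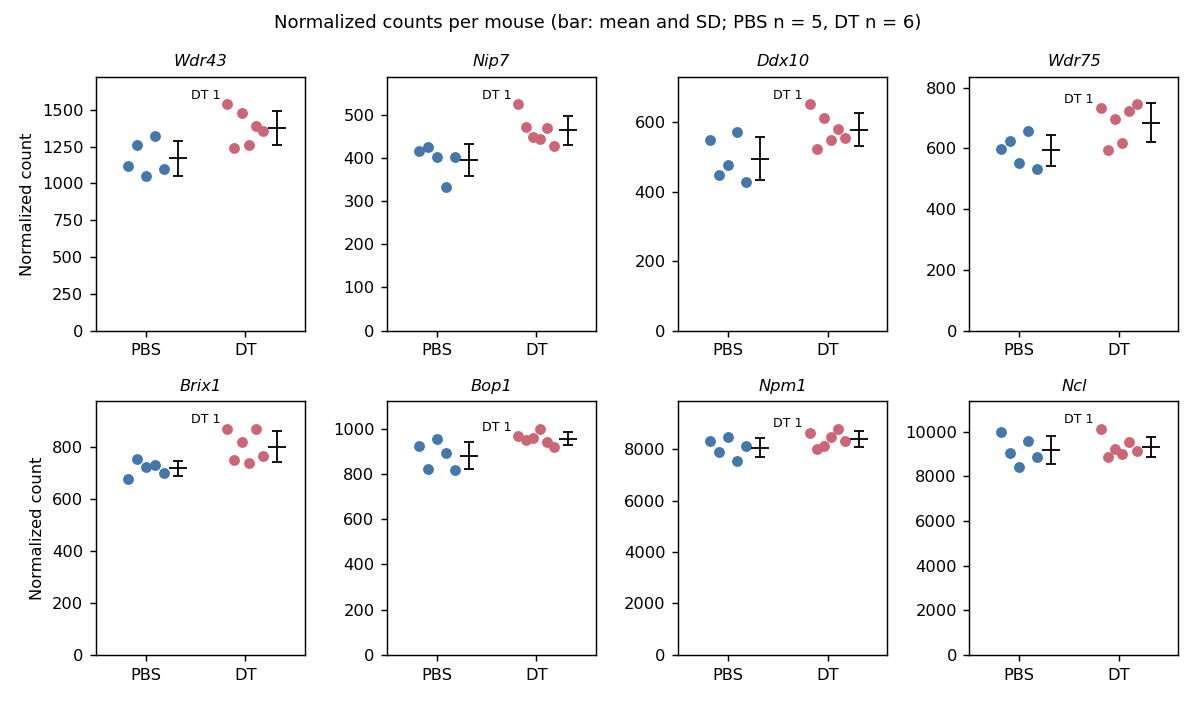
Normalized counts of 8 genes in each mouse (points; vertical axes start at 0), with the mean and SD of each group (bars; PBS n = 5, DT n = 6) and DT 1 labelled. Nip7 alone has no overlap between the groups; Wdr43, Wdr75 and Brix1 have 4 DT-treated mice above all PBS-treated mice, while Npm1 and Ncl overlap.

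At least 1 DT-treated mouse lay above the highest PBS-treated mouse for 43.2% of the 7410 genes at the same level and for 37 of the 45 genes. Of the 45, in 13 genes it was 1 mouse, which was DT 1 in 12 of them, in 7 genes it was 2 mice, in 9 it was 3, in 5 it was 4, in 2 it was 5 and in 1, Nip7, all 6. This breakdown was not counted over other genes. The coefficient of variation between mice was between 2.34% and 19.1% after PBS (median 7.8%) and between 2.41% and 12.8% after DT (median 8.1%). It was larger after PBS for 30 of the 45 genes, a count not made over other genes. Of the 7410 genes at the same level, 68.0% were lowest in a PBS-treated mouse and 43.2% highest in a DT-treated one. Most extreme values at that level thus lay in PBS-treated mice, and a wider spread after PBS was not limited to the 45 genes. Counting error alone gives between 1.04% (Ncl) and 6.01% (Rrp9) at the levels of the 45 genes. The residual SD on the log2 scale had a median of 0.121 for the 45 genes and of 0.108 for the 7410 genes at the same level.

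Per kilobase of the longest annotated transcript, Npm1 had the highest level, with 5047 normalized counts per kilobase, followed by Nhp2 with 1408 and Ncl with 1129. The lowest levels per kilobase were those of Wdr12 (39.8), Rrp1b (61.5) and Utp20 (69.0). The median level per kilobase was 837 for the multifunctional proteins, 404 for the box H/ACA group, 370 for PeBoW, 287 for the other large subunit factors, 224 for the box C/D group, 173 for the small subunit factors and 114 for the RNA polymerase I subunits. Dividing by length assumes reads along the whole transcript. The labels name a kit for whole mRNA, while the study trimmed its reads by the guide of a 3′ end kit, so these levels hold only if the labels do. The order also depends on the transcript taken as the length of a gene: the same 6 genes were at the ends with the longest protein-coding transcript, and 2 of the 6 were with the median transcript length.

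The rest of the pathway was described with a list of 121 other ribosome biogenesis genes, of which 119 had values. A log2 fold change above 0 was found for 105 of them (88.2%), with a median of 0.0761, and 24 were higher and 1 was lower after DT at an unadjusted p under 0.05, while 0 passed the adjusted threshold in limma. In the list, 5 genes were higher after DT without overlap between the groups and 0 lower. Over all 19170 genes, 5.31% were higher and 6.19% lower at an unadjusted p under 0.05 in limma. Without overlap, 0.902% were higher and 0.751% lower. Over the 7410 genes at the level of the nucleolar factors, these shares were 9.74%, 5.61%, 1.84% and 0.837%. Of those 7410 genes, 59.0% had a positive log2 fold change. The list was not matched to them by level. The smallest p was that of Rsl1d1, a nucleolar protein with a ribosomal protein L1 domain, with 1264, 1275, 1200, 1217 and 1179 normalized counts after PBS and 1560, 1284, 1468, 1413, 1476 and 1393 after DT. All 6 DT-treated mice lay above all PBS-treated mice, with DT 2 the closest. The log2 fold change was 0.22 (SE 0.053, adjusted p = 0.118 by limma, 0.0681 to 0.57 over the alternatives), and Rsl1d1 passed the threshold without DT 2 (adjusted p = 0.0681), with TMM scaling (0.0983) and when low genes were left out (0.095). Urb2 and Nmd3, an export adaptor of the large subunit, followed with log2 fold changes of 0.18 and 0.17. The mean deviation of this list per mouse was 0.142 in DT 1, from -0.0263 to 0.0552 in DT 2 to DT 6, and between -0.0864 (PBS 5) and -0.00148 (PBS 4) after PBS, so that here too DT 1 was the highest and PBS 3 and PBS 5 were the lowest mice.

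**Figure D4:**
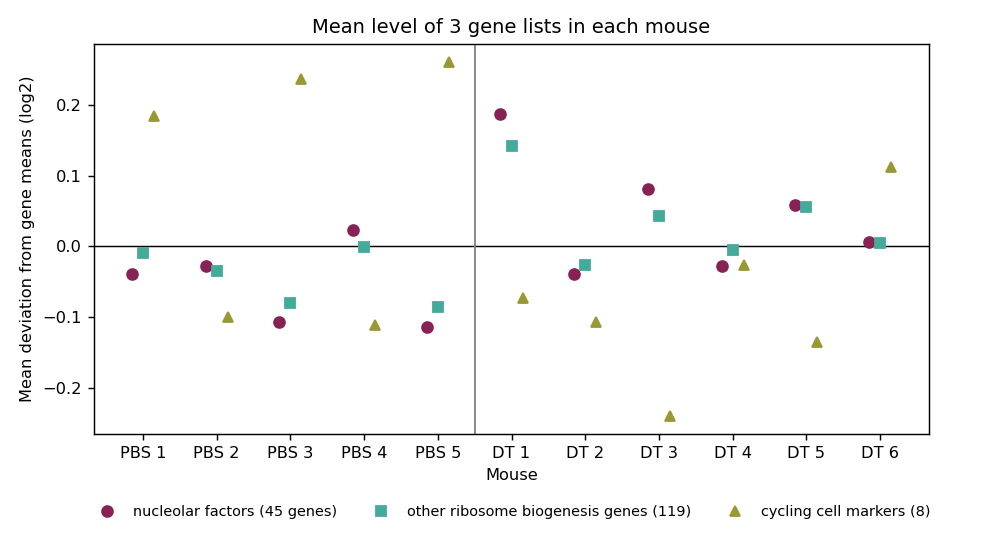
Mean deviation from the gene means on the log2 scale (vertical axis) of the 45 nucleolar factors, the 119 other ribosome biogenesis genes and the 8 cycling cell markers in each mouse (horizontal axis; PBS left of the line). Both ribosome biogenesis lists are highest in DT 1, at 0.187 and 0.142, and the cycling markers are highest in PBS 5, at 0.261.

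MYC and related factors bind the E-box, whose canonical form is CACGTG and reads the same on both strands. RefSeq promoter windows on GRCm38.p6, from 250 bases before to 50 bases after the start of a gene, were matched by symbol for 39 of the 45 genes. There is no window here for Npm1, Gnl2, Bop1, Fbl, Rrs1 and Rrp12. The letters CACGTG were in the window of 9 of the 39 genes (23.1%) and of 20.4% of 98 other ribosome biogenesis genes. They were in that of 12.7% of 5984 genes at the same level and of 11.7% of 10299 genes with a mean of at least 10. Over all 27025 genes with a promoter window, with or without values here, the share was 8.09%. In the 9 genes, the match began before the start in 2 and after it in 7. The stretch around the match is shown for the 3 genes with an unadjusted p under 0.05 and, for contrast, for 2 genes with a negative log2 fold change, 5′ to 3′ on the strand of the gene with the E-box in capitals:
Wdr43 (chr17:71616220-71616249, plus strand): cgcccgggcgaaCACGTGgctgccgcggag
Utp18 (chr11:93885769-93885798, minus strand): gcgagcgccggtCACGTGgcttgcggcggc
Nop2 (chr6:125131811-125131840, plus strand): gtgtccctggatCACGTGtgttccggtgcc
Ltv1 (chr10:13193092-13193121, minus strand): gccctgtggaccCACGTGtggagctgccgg
Utp20 (chr10:88826765-88826789, minus strand): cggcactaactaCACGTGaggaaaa

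The other 4 genes with the letters in their window were Grwd1, Utp4, Pes1 and Tsr1. The 9 genes with a match had a median log2 fold change of 0.122, with 7 positive, and the 30 without had a median of 0.103, with 28 positive. Genes on both sides of 0 therefore carry the same letters, as the 5 stretches show. A match describes the sequence only and is no evidence of binding.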

How the data were processed

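The authors deposited normalized counts per gene and mouse, that is read counts divided by a DESeq2 size factor. The methods of the paper give trimming, TopHat, htseq-count and removal of genes with a summed count under 10, on GRCm38. The submitters' processing notes name TopHat2 2.1.1, HTSeq 2.01, DESeq2 1.36.0 and GRCm39, and the identifiers of the table are of a later release than the annotation used here, so no gene positions are given from it. In every mouse 100% of values were whole multiples of 1 read, within 0.001. Of 55414 genes listed, 19170 have values.

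log2(normalized count + 1) was fitted with limma 3.58.1 (R 4.3.3, intensity trend, no covariate) over all 19170 genes and 11 mice, with Benjamini-Hochberg adjustment and the threshold of 0.1. Fold changes on this scale understate those of low genes. The procedure was tested on simulated data. Whether counting used strand is not given in the sources used here. Transcript lengths came from GENCODE M21 and promoters from RefSeq. Values in every mouse are given for the 5 smallest p on either side (4 were lower), the smallest p of each role, the 3 highest and lowest levels per kilobase, and Ncl, Npm1 and Fbl. Other genes shown fall outside this rule. Genes and lists were chosen with earlier results of these data known. Replicate pairs of a group differed by 9.19 to 70.3 times the counting variance, so no library was counted as a duplicate.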

Additional observations from a re-analysis of the deposited data

Results flagged for a closer look

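A mouse far from the others of its group was looked for in each of the 45 genes and both groups, and 6 of these 90 groups of mice had one, where chance flags about 1 in 20. DT 1 was the highest for Wdr12 at 495.2 normalized counts, against 373 to 403 in the other DT-treated mice, for Noc3l at 533.0 against 410.1 to 447, and for Mrto4 at 490.6 against 413 to 441. PBS 4 was the highest of its group for Polr1b, at 663.9 against 435 to 482, and the lowest for Nip7, at 332.4 against 402 to 426. DT 2 was the lowest for Rrp9, at 237.4 against 287 to 311.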

How the results depend on the processing

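The limits of these results are the size of the differences, mostly under 0.2 on the log2 scale, and the weight of single mice. The number of the 45 genes past the adjusted threshold was 0 in the main fit and in all 20 alternatives (smallest adjusted p 0.104, for Wdr43 without PBS 4), and the number with a positive log2 fold change was between 39 and 42. The number at an unadjusted p under 0.05 ranged from 5 to 15 when a mouse was left out, and the number without overlap from 1 to 4. Over all 19170 genes, the number higher at that p ranged from 768 to 1280 in the same fits. The share of all genes without overlap was not counted in them. The median log2 fold change ranged from 0.0636 to 0.124 when a mouse was left out and from 0.0766 to 0.11 in the other alternatives. Whether the shared replicate numbers pair the mice is not known, and the main fit used no pairing. The correlation of deviations was between -0.233 and 0.324 over the pairs. Only PBS 5 matched best with the DT-treated mouse of its own title number, and no PBS-treated mouse did so by library number. These correlations cannot exclude a pairing. A replicate block on the numbers in the titles leaves DT 6 without a partner, so that it adds nothing to the difference. With a block on the library numbers this holds for DT 5. Of the 45 genes, 7 had an unadjusted p under 0.05 with the title block and 4 with the library block. Over all 19170 genes, 706 and 594 were higher at that p, against 1018 in the main fit.

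Of the other ribosome biogenesis genes, 1 passed the threshold with TMM scaling, when genes with a mean under 10 were left out and without DT 2 (in the fits without a mouse between 0 and 1). With the median transcript length, 2 of the 6 genes at the ends of the order of levels stayed there. The log2 fold change changed sign in at least 1 alternative for 9 of the 45 genes, none of them past the threshold, of which 5 were shown by mouse and 4 were Gar1, Nop10, Nop56 and Utp4 (Utp4 was -0.0010 without DT 1 and without PBS 1). That of Polr1a was 0.018 without PBS 4 and 0.0067 without DT 4 (from -0.12 to 0.018 when a mouse was left out). That of Utp20 was 0.0095 without PBS 1 and 0.044 without PBS 4 (from -0.093 to 0.044). That of Noc4l was 0.0061 without PBS 1, 0.0032 without PBS 3 and 0.020 without DT 2 (from -0.061 to 0.020). That of Ncl was -0.051 with quantile normalization and -0.0064 without PBS 3 (up to 0.056 when a mouse was left out), and that of Nhp2 was -0.037 without PBS 4 (up to 0.13). The cause of these changes was not tested. The other 15 genes shown by mouse kept their direction in every alternative run. The planned count tests (edgeR and DESeq2) on reads recovered from the normalized counts were not run, and protein features were not analysed here.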
